A study of Capra hircus with 8 samples.

Results

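Transcript levels of 7 genes of the growing oocyte, ASTL, ZP2, ZP3, GDF9, BMP15, NOBOX and LHX8, were followed in goat (Capra hircus) embryos at the 8-cell stage. They were chosen by symbol in the messenger RNA table of these embryos, and all 7 of 7 symbols were found among its 22107 entries. The table compares embryos made by in vitro fertilisation (IVF) with embryos from somatic cell nuclear transfer (SCNT), where an egg emptied of its own nucleus receives that of a body cell. There were 2 libraries of each kind. The study also holds 2 IVF and 2 SCNT libraries at the 4-cell stage, for which this messenger RNA table holds no values. The labels give no treatment other than the way of making the embryo. The sources used here do not name the goat breed, the donor cell line, the origin of the recipient eggs or the number of embryos per library, nor do they state whether the 2 libraries of a group came from separate pools. The p-values therefore measure the spread between these libraries, which may be in part technical.

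The genes belong to 3 roles. The zona pellucida is the glycoprotein coat of the egg, built from ZP2, ZP3 and related proteins, and ASTL encodes ovastacin, a protease of the cortical granules that in the mouse cleaves ZP2 after fertilisation so that further sperm no longer bind. GDF9 and BMP15 are ligands of the TGF-beta family that the oocyte secretes to act on the granulosa and cumulus cells around it. NOBOX and LHX8 are homeobox transcription factors that, in the mouse, are needed for oocytes to enter growing follicles. Such transcripts are made during oocyte growth, stored in the egg and cleared as transcription from the embryo's own genome starts, so an 8-cell embryo holds what is left of them together with anything newly made. These libraries cannot separate those sources.

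Levels are given in FPKM, fragments per kilobase of gene and per 1000000 fragments, a unit that corrects for gene length and so allows different genes to be set side by side. The reads behind the values were recovered from exact ratios between libraries: 10303 of 10303 tested genes came to whole reads in every library within 0.003 read. These reads summed to between 25.3 and 27.8 M per library (M, 1000000). The entries at 1 FPKM or above numbered 8984 and 9038 for IVF, and 9883 and 11025 for SCNT. Differences are SCNT minus IVF on log2(FPKM + 1), tested with limma over every gene at 1 FPKM or more in at least 2 of the 4 libraries. All 7 genes entered the test, 6 of them at 1 FPKM or more in every library and NOBOX in 3 of 4. Of all tested genes, 398 passed at an adjusted p of 0.05, 311 higher and 87 lower in SCNT, but single libraries moved this count. It became 46 on leaving out SCNT replicate 2, 3834 on leaving out SCNT replicate 1, 173 on leaving out IVF replicate 1, and 257 on leaving out IVF replicate 2. The tested genes had a median log2 difference of 0.39. Centring each library on its median moved this to -0.10, with 158 higher and 238 lower calls, and quantile normalization moved it to -0.01, with 121 higher and 150 lower calls.

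In 8-cell SCNT embryos the transcript of the egg-coat protease ASTL was higher than in IVF embryos, and it was the single gene of the 7 to pass the test. ZP2, GDF9 and BMP15 stood at 404 FPKM or more in every library, with log2 differences of 0.26 to 0.86, and ASTL, ZP3, LHX8 and NOBOX stood at 187 FPKM or less, with log2 differences of 1.49 to 2.87. In each of the 7 genes both SCNT libraries lay above both IVF libraries, which was also so for 46.9% of all tested genes. With 1 of 7 passing, the share of all tested genes that passed was 3.86%, and the share that passed with a higher level in SCNT was 3.02%. The median log2 difference of the 7 genes was 1.49 and that of all tested genes 0.39. Because whole embryos were lysed, fewer cells holding a transcript and less of it per cell cannot be told apart, and FPKM gives a share of the library and not molecules per embryo.

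**Figure D1:**
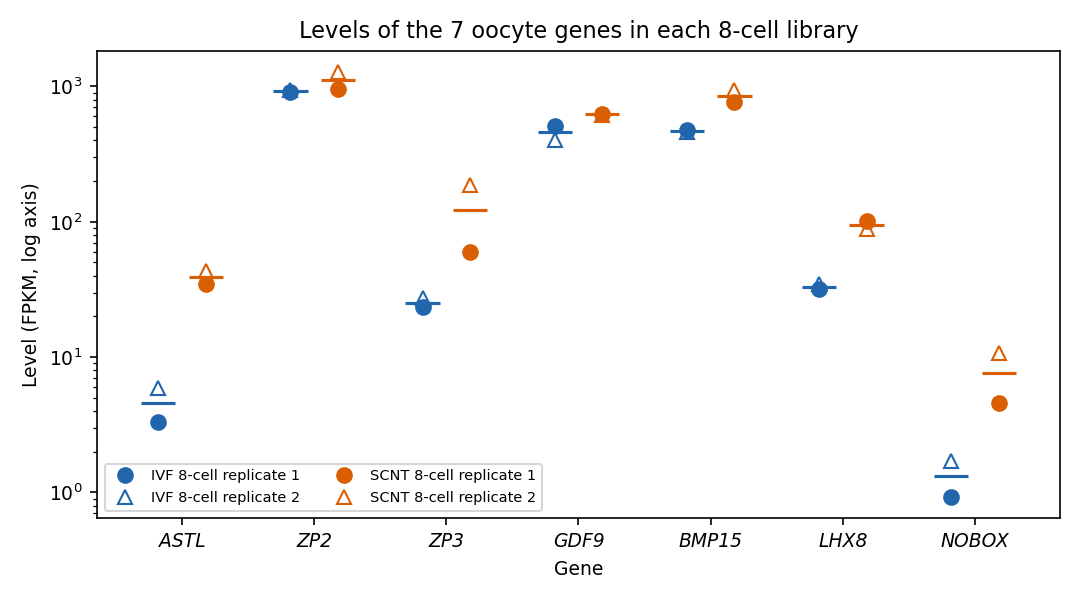
Levels in FPKM on a log axis for the 7 genes in each 8-cell library (blue IVF, orange SCNT; circle replicate 1, triangle replicate 2; line, mean of the 2 libraries). ZP2, GDF9 and BMP15 stand at 404 FPKM or more in all 4 libraries, and ASTL moves from 4.61 to 39.0 FPKM between the group means.

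ASTL stood at 3.30 and 5.93 FPKM in the IVF libraries (replicate 1, then 2, as throughout) and at 34.9 and 43.2 FPKM in the SCNT libraries. Both SCNT values were several times both IVF values, and the gap between the groups was much wider than that within either group. The values rest on 209 and 415 reads in IVF and 2287 and 2839 reads in SCNT. Counting error alone (95% exact Poisson interval, which treats reads as independent and leaves out PCR copies) would put the lower IVF value between 2.86 and 3.77 FPKM and the lower SCNT value between 33.5 and 36.4 FPKM. The mean was 4.61 ± 1.86 FPKM (SD, n = 2) in IVF and 39.0 ± 5.83 FPKM (SD, n = 2) in SCNT, a ratio of 8.46. The log2 difference was 2.87 ± 0.46 (SE), with an adjusted p of 0.028 in limma. ASTL ranked 6278 and 5080 among the 22107 entries for IVF and 2029 and 1789 for SCNT, a measure that does not depend on how a library is scaled. The difference exceeded that of 99.3% of tested genes. This share was 98.6% after rescaling to a sum of 1000000 and 95.9% with voom in limma on the recovered reads. The call was lost without IVF 8-cell replicate 1 (adjusted p = 0.109 in limma) and without SCNT 8-cell replicate 2 (adjusted p = 0.0793 in limma), where the difference was 2.52 and 2.72.

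ZP2, the substrate of ovastacin, was the most abundant of the 7 genes in all 4 libraries. It stood at 905 and 942 FPKM in IVF and at 961 and 1279 FPKM in SCNT. The lower SCNT value lay just above the higher IVF value, so that the groups were separate by a narrow margin. The log2 difference of 0.26 ± 0.39 (SE) missed the threshold (adjusted p = 0.674 in limma). It was -0.23 after median centring and 0.33 after quantile normalization, passing under neither.

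ZP3, which in the mouse forms the zona filaments together with ZP2, was far less abundant. It stood at 23.3 and 27.3 FPKM in IVF and at 59.4 and 187 FPKM in SCNT. Both SCNT libraries were above the IVF libraries, and SCNT replicate 2 was further above replicate 1 (1.64 on the log2 scale) than replicate 1 was above the IVF mean (1.20). The log2 difference of 2.02 ± 0.55 (SE) missed the threshold (adjusted p = 0.0657 in limma). Leaving out SCNT 8-cell replicate 2 gave 1.20, and leaving out SCNT 8-cell replicate 1 gave 2.84, where it passed (adjusted p = 0.0137 in limma).

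Ratios between genes of a library do not depend on how that library was scaled. ZP2 exceeded ZP3 by 38.9 and 34.5 times in the IVF libraries and by 16.2 and 6.85 times in the SCNT libraries. ZP2 exceeded ASTL by 275 and 159 times in IVF and by 27.5 and 29.6 times in SCNT. In both ratios the groups did not overlap. The ratio of ZP2 to ZP4, another zona glycoprotein, did overlap, at 1.65 and 1.12 in IVF and 1.84 and 1.17 in SCNT. So did the ratio of LHX8 to NOBOX, at 34.1 and 20.1 in IVF and 22.1 and 8.31 in SCNT. ZP3 exceeded ASTL by 7.06 and 4.6 times in IVF and by 1.7 and 4.33 times in SCNT, without overlap. These ratios are a description, and they were not tested.

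**Figure D2:**
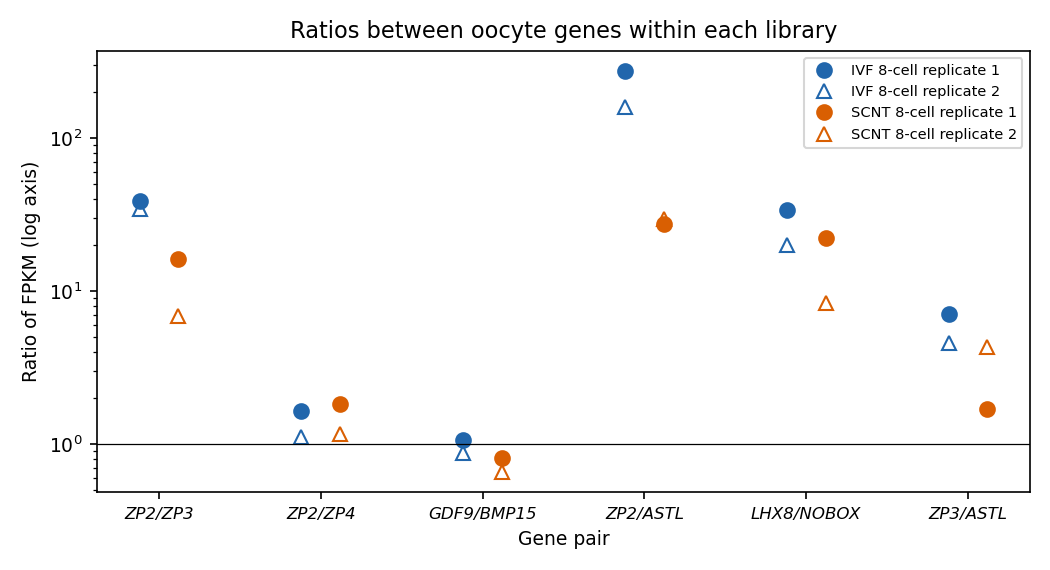
Ratios of FPKM between pairs of the genes (and ZP4) within each 8-cell library, on a log axis (blue IVF, orange SCNT; circle replicate 1, triangle replicate 2). The ratio of ZP2 to ASTL is 275 and 159 in IVF against 27.5 and 29.6 in SCNT, while the ratio of ZP2 to ZP4 overlaps between the groups.

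Other genes of the zona and the egg surface were taken from a list of 13, of which 7 symbols were in the table and 6 were tested. Of these 6, 2 rose, 0 fell and 4 did not pass, with a median log2 difference of 1.49. Over all tested genes 3.02% passed as higher, and the median was 0.39. IZUMO1R, which encodes the egg receptor JUNO that sperm bind, rose from 10.8 ± 4.04 to 77.0 ± 39.7 FPKM (SD, n = 2; adjusted p = 0.0389 in limma). CD9, a membrane protein that mouse eggs need to fuse with sperm, rose from 3.67 ± 0.158 to 28.6 ± 10.3 FPKM (SD, n = 2; adjusted p = 0.0343 in limma). Neither passed without SCNT 8-cell replicate 2 (adjusted p = 0.0874 for IZUMO1R and 0.0805 for CD9 in limma) or without IVF 8-cell replicate 1 (0.139 and 0.109), CD9 also not without IVF 8-cell replicate 2 (0.0790), and IZUMO1R just missed after quantile normalization (0.0507). ZP4 stood at 548 and 842 FPKM in IVF and at 522 and 1090 FPKM in SCNT, and its groups overlapped (adjusted p = 0.856 in limma). CD81, a relative of CD9, stood at 17.4 and 20.7 FPKM in IVF and at 36.9 and 153 FPKM in SCNT (adjusted p = 0.088 in limma). FETUB, whose product inhibits ovastacin in the mouse, was listed at 0 in 3 libraries and at 0.0686 FPKM in SCNT replicate 1; it was named for that role after its values were seen.

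The oocyte growth factor genes were abundant in both kinds of embryo. GDF9 stood at 509 and 404 FPKM in IVF and at 627 and 617 FPKM in SCNT. The SCNT libraries were nearly equal and lay above both IVF libraries, which differed more from each other. The log2 difference of 0.45 ± 0.38 (SE) missed the threshold (adjusted p = 0.440 in limma). It was -0.04 after median centring and 0.57 after quantile normalization, passing under neither. BMP15 stood at 474 and 460 FPKM in IVF and at 770 and 940 FPKM in SCNT. The IVF libraries were close to each other and both SCNT libraries were above them. The mean was 467 ± 10.1 FPKM in IVF and 855 ± 120 FPKM in SCNT (SD, n = 2), a ratio of 1.83. Its log2 difference of 0.86 ± 0.38 (SE) missed the threshold (adjusted p = 0.160 in limma).

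Within a library the 2 ligands were near parity in IVF, with GDF9 at 1.07 and 0.878 times BMP15, and GDF9 was below BMP15 in both SCNT libraries, at 0.814 and 0.656 times. The groups did not overlap, but the nearest values, 0.878 and 0.814, were closer to each other than the replicates of either group. The order of the 2 genes in IVF replicate 1 was the opposite of that in the other 3 libraries.

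GDF9 and BMP15 proteins are cut out of precursors by convertases and signal through receptor kinases to SMAD proteins, GDF9 mainly through BMPR2 with TGFBR1 to SMAD2 and SMAD3, and BMP15 through BMPR2 with BMPR1B to SMAD1, SMAD5 and SMAD9. Of 22 such genes, 22 were in the table and 16 were tested. None of the 16 passed in limma, against 3.86% of all tested genes. An unadjusted p under 0.05 was found for 4 of the 16, against 31.1% of all tested genes. SMAD7 was among the 4, and it was under 1 FPKM in both IVF libraries and so entered through the SCNT libraries alone. The median log2 difference was 0.45, close to the 0.39 of all tested genes. With voom in limma on the recovered reads 0 passed as well. The most abundant were SMAD5, at 227 and 227 against 131 and 105 FPKM (adjusted p = 0.134 in limma), SMAD2, at 92.7 ± 25.7 against 124 ± 24.8 FPKM (0.505), and ACVR1, at 45.6 ± 4.38 against 51.4 ± 3.75 FPKM (0.793). Both SCNT libraries lay above both IVF libraries for 10 of the 16, and for 46.9% of all tested genes. SMAD5 is 1 of 3 tested genes of this list for which both SCNT libraries lay below both IVF libraries, as they did for 17.1% of all tested genes. The others of these 3, named after their values were seen, were the receptors BMPR2 (23.9 and 20.5 against 17.7 and 9.13 FPKM) and BMPR1A (17.9 and 16.3 against 15.8 and 8.11 FPKM).

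Among 21 other ligands of the family and their inhibitors, 18 were in the table and 6 were tested, with 1 higher, 0 lower and 5 not passing. The share of all tested genes that passed as higher was 3.02%. BMP2 rose from 0.285 ± 0.332 to 4.23 ± 0.473 FPKM (SD, n = 2; adjusted p = 0.0389 in limma). It was under 1 FPKM in both IVF libraries and so entered the test through the SCNT libraries alone, which ties the filter to the direction. The call held in 7 of 13 alternatives and was lost, among others, after quantile normalization (0.0612) and on leaving out IVF replicate 1 (0.0506), IVF replicate 2 (0.163) or SCNT replicate 2 (0.0850). The most abundant were GDF3, a close relative of GDF9 and BMP15, at 56.2 ± 1.23 against 109 ± 56.5 FPKM (adjusted p = 0.248 in limma), BMP4, at 6.14 and 5.83 against 14.0 and 33.0 FPKM (0.0776), and TGFB2, at 5.48 and 4.76 against 5.25 and 5.67 FPKM (0.925). The inhibins' shared subunit gene INHA, INHBB and AMH were listed at 0 in all 4 libraries.

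Of 11 genes that respond to BMP or GDF9 signals in other cells, 9 were tested, 1 rose, 0 fell and 8 did not pass. Over all tested genes 3.02% passed as higher. ID3, an inhibitor of helix-loop-helix transcription factors, stood at 20.2 and 17.7 FPKM in IVF and at 102 and 235 FPKM in SCNT. Both SCNT values were far above both IVF values, the log2 difference was 2.97 ± 0.48 (SE), and it passed (adjusted p = 0.028 in limma), though not without SCNT 8-cell replicate 2 (0.0541). ID2, the most abundant, stood at 346 and 373 FPKM in IVF and at 290 and 192 FPKM in SCNT, with both SCNT values lower (adjusted p = 0.323 in limma). HAS2, which makes hyaluronan in the cumulus, stood at 20.6 and 29.4 against 17.9 and 18.1 FPKM (adjusted p = 0.515 in limma). The median of the list was -0.23, and its sign depended on the setting. It was 0.40 without IVF replicate 1, 0.10 without SCNT replicate 1 and 0.46 with a filter of 5 FPKM. Leaving out IVF replicate 2 gave -0.19, and leaving out SCNT replicate 2 gave -0.31. Both SCNT libraries lay above both IVF libraries for 4 of the 9 and below them for 4, against 46.9% and 17.1% of all tested genes.

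The oocyte transcription factor genes stood below the growth factor genes in all 4 libraries. LHX8 stood at 31.8 and 34.5 FPKM in IVF and at 102 and 88.6 FPKM in SCNT. The replicates of each group were close and the groups well apart. The mean was 33.1 ± 1.94 FPKM in IVF and 95.2 ± 9.36 FPKM in SCNT (SD, n = 2), a ratio of 2.87. The log2 difference of 1.49 ± 0.39 (SE) missed the threshold (adjusted p = 0.0611 in limma). On leaving out any single library it ranged from 1.39 to 1.59, and it passed in the fit that lacked SCNT 8-cell replicate 1 (adjusted p = 0.019 in limma).

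NOBOX was the least abundant of the 7 genes in every library. It stood at 0.931 and 1.72 FPKM in IVF and at 4.60 and 10.7 FPKM in SCNT. Both SCNT libraries were above both IVF libraries, and replicate 2 was the higher library of each group. The IVF values rest on 76 and 155 reads, and counting error alone would put them between 0.733 and 1.17 FPKM and between 1.46 and 2.01 FPKM (95% exact Poisson intervals). The log2 difference of 1.82 ± 0.51 (SE) missed the threshold (adjusted p = 0.0667 in limma). Leaving out SCNT 8-cell replicate 2 gave 1.29, and leaving out SCNT 8-cell replicate 1 gave 2.35, where it passed (adjusted p = 0.0198 in limma). At this level the added 1 FPKM weighs heavily, and the difference was 2.38 with 0.1 FPKM in its place.

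**Figure D3:**
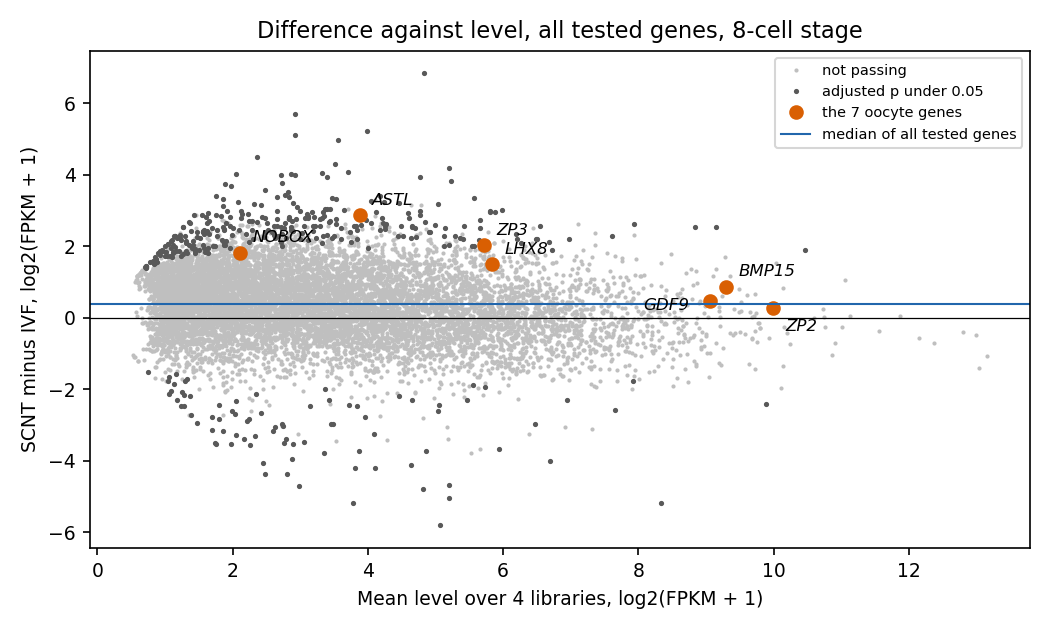
SCNT minus IVF difference against mean level, both on log2(FPKM + 1), for every tested gene (light points not passing, dark points with an adjusted p under 0.05, orange the 7 oocyte genes, blue line the median of all tested genes at 0.39). ASTL lies among the passing genes at 2.87, while ZP2, GDF9 and BMP15 lie at the high-level end at 0.26, 0.45 and 0.86.

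Among 16 other regulators of the oocyte and partners of these factors, 14 were in the table and 13 were tested. Of the 13, 1 was higher, 0 were lower and 12 did not pass, with a median log2 difference of 0.74. Over all tested genes 3.02% passed as higher, and the median was 0.39. SEBOX, an oocyte homeobox gene, stood at 0.663 and 3.37 FPKM in IVF and at 31.9 and 50.5 FPKM in SCNT. All SCNT values exceeded all IVF values, and the log2 difference of 3.93 ± 0.57 (SE) passed (adjusted p = 0.0234 in limma), though not without SCNT 8-cell replicate 2 (0.0850). The most abundant were KIT, the receptor by which oocytes respond to granulosa cells, at 22.3 and 27.1 against 40.8 and 39.5 FPKM (adjusted p = 0.269 in limma), its ligand KITLG, at 35.4 and 23.3 against 33.9 and 31.9 FPKM (0.789), and TBPL2, the oocyte form of the TATA-binding protein, at 36.4 and 46.9 against 23.1 and 17.1 FPKM (0.140).

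Some further genes were named for their known ties to the 7, after their values were seen. FIGLA, which activates the zona genes in mouse oocytes, was higher in both IVF libraries (2.75 and 1.05 FPKM) than in both SCNT libraries (0.466 and 0.604 FPKM), without passing (adjusted p = 0.182 in limma). SOHLH1, which acts upstream of NOBOX and LHX8 in mouse oocytes, stood at 0.122 and 0.471 FPKM in IVF and at 1.98 and 2.68 FPKM in SCNT (adjusted p = 0.0615 in limma). It was under 1 FPKM in both IVF libraries, as FIGLA was in both SCNT libraries. Each entered the test through the group where it was higher, which ties the filter to the direction. POU5F1, whose promoter NOBOX binds in the mouse, stood at 5.27 and 6.15 against 11.1 and 25.5 FPKM (0.107). LDB1, a cofactor of LIM homeobox proteins such as LHX8, stood at 1.99 and 2.42 against 7.53 and 16.9 FPKM (0.0624).

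**Figure D4:**
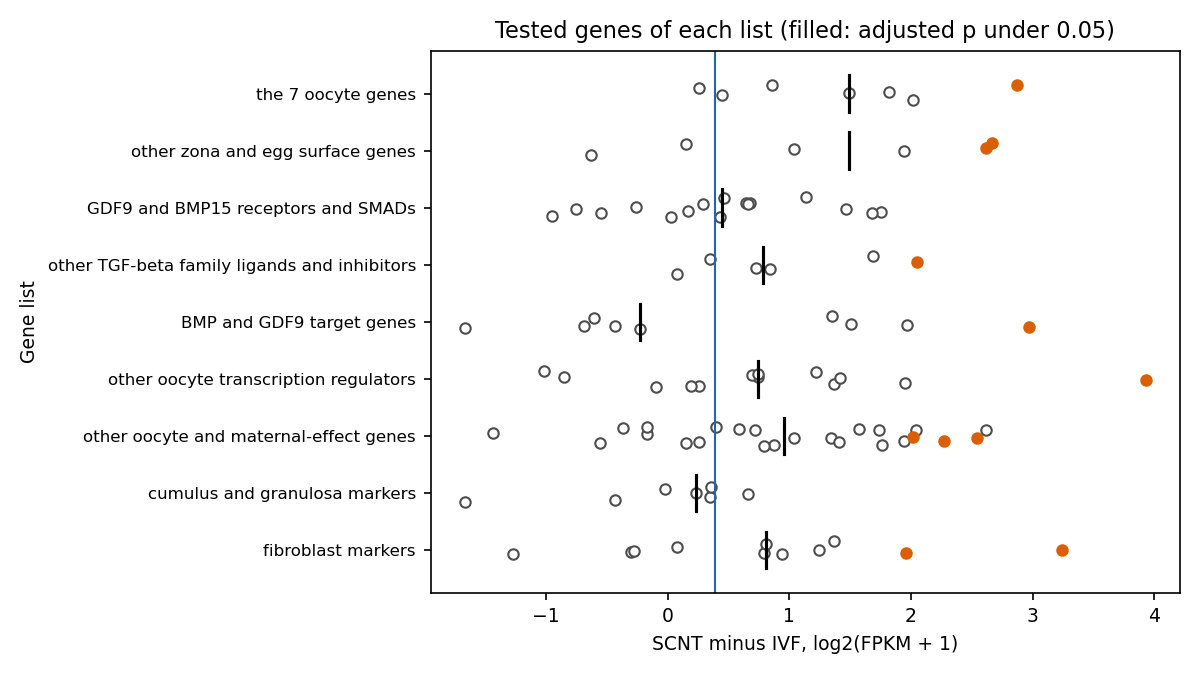
SCNT minus IVF difference on log2(FPKM + 1) for the tested genes of each list (filled points passed at an adjusted p under 0.05, black bars are list medians, the blue line is the median of all tested genes at 0.39). The 7 oocyte genes have a median of 1.49, the receptors and SMADs 0.45, and the target genes -0.23. The median of the target genes turned positive on leaving out IVF replicate 1 or SCNT replicate 1.

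Set in order by level, ZP2 came first in all 4 libraries and NOBOX last, and ASTL was last but one. GDF9 was above BMP15 in IVF replicate 1 and below it in the other libraries. LHX8 stood above ZP3 in 3 libraries and below it in SCNT replicate 2, where ZP3 reached 187 FPKM against 88.6 FPKM. The 7 genes together made up 0.469% and 0.481% of the summed FPKM for IVF and 0.672% and 0.742% for SCNT. ZP2, GDF9 and BMP15 supplied most of each share.

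The 7 genes followed different patterns over the 4 libraries. Likeness was measured as the root mean square difference of log2(FPKM + 1), each gene centred on its own mean, among tested genes with a symbol, which with 4 libraries describes the shape and no more. Nearest to ASTL was SLC2A1, a glucose transporter gene (2.29, 4.44, 24.1 and 29.7 FPKM in IVF 1, IVF 2, SCNT 1 and SCNT 2; distance 0.077), followed by UMPS (0.091) and BAMBI (0.111). Nearest to ZP3 were GPR84 (37.9, 43.3, 98.2 and 306 FPKM; 0.027), FBXL6 (0.055) and GOT2 (0.060). Nearest to BMP15 were SRD5A3 (0.009), PCDH17 (0.020) and CDCA8 (0.023), and nearest to GDF9 were KLHL9 (0.012), FGF20 (0.030) and ABCA10 (0.031). For ZP2 they were ANK3 (0.021), ORC1 (0.029) and PHF21A (0.030). NOBOX lay nearest to CD2BP2 (0.038), HECTD3 (0.038) and PADI6, a maternal-effect gene (8.84, 13.6, 26.8 and 58.3 FPKM; 0.039). LHX8 lay nearest to ATOH7 (0, 0, 1.99 and 1.39 FPKM; 0.070), KDM2A (0.072) and SLC5A6 (0.075). ATOH7, SLC5A6, BAMBI, FBXL6 and HECTD3 were under 1 FPKM in both IVF libraries. They entered the test through the SCNT libraries alone, and at such levels the added 1 FPKM weighs heavily in the distance.

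Markers of cells that could accompany the embryos were read beside these results. Of 18 cumulus and granulosa markers, 15 were in the table and 7 were tested, and 0 passed in limma, with 0 at an unadjusted p under 0.05 and 0 with voom in limma. Over all tested genes 3.86% passed in limma and 31.1% had an unadjusted p under 0.05. Their levels summed to 101 and 108 FPKM for IVF and to 82.5 and 122 FPKM for SCNT. Of the defining markers, FSHR was listed at 0 in all 4 libraries, AMHR2 reached at most 0.346 FPKM, CYP19A1 stood at 1.68 and 1.66 FPKM for IVF and at 0.974 and 2.53 FPKM for SCNT, and FOXL2 was not found by that symbol. Other markers of the list were at clear levels in both groups. STAR, the steroidogenic acute regulatory protein gene, stood at 42.4 and 38.8 against 39.5 and 58.0 FPKM, HAS2 at the values given above, VCAN at 11.4 and 14.2 against 15.6 and 17.7 FPKM, and TNFAIP6 at 19.5 and 19.8 against 1.77 and 14.3 FPKM. Of 20 fibroblast markers, 11 were tested, 2 rose (TIMP1 and TAGLN), 0 fell and 9 did not pass, where 3.02% of all tested genes passed as higher. An unadjusted p under 0.05 was found for 5 of the 11, against 31.1% of all tested genes, and 2 passed with voom in limma. The median log2 difference was 0.81, against 0.39 over all tested genes. TIMP1, TAGLN and COL3A1 were among the 5, and all were under 1 FPKM in both IVF libraries. The filter on low values therefore bears on this count and on the median. TIMP1 (0.156 and 0.637 against 11.2 and 12.9 FPKM) and TAGLN (0.659 and 0.389 against 4.85 and 4.94 FPKM) were under 1 FPKM in both IVF libraries and entered the test through the SCNT libraries alone. Neither passed without SCNT 8-cell replicate 2 (adjusted p = 0.0620 and 0.0833 in limma) or without IVF 8-cell replicate 1 (0.0506 and 0.144), and TAGLN also not without IVF 8-cell replicate 2 (0.175) or after median centring (0.0586) or quantile normalization (0.0747). The levels of the 20 summed to 142 and 133 FPKM for IVF and to 111 and 131 FPKM for SCNT. The most abundant of them was the proteoglycan gene DCN, at 94.3 and 85.5 against 33.9 and 39.5 FPKM, with both SCNT libraries lower (log2 difference -1.27, adjusted p = 0.0776 in limma). LUM stood at 16.1 and 13 against 16.5 and 14.2 FPKM, and the fibronectin gene FN1 at 12.2 and 13.5 against 9.44 and 11.4 FPKM. Of the defining markers, COL1A1 stood at 0.227 and 0.505 against 0.730 and 0.993 FPKM, COL1A2 at 3.22 and 2.44 against 6.41 and 6.20 FPKM, COL3A1 at 0.185 and 0.126 against 2.41 and 1.63 FPKM, and PDGFRB reached at most 0.367 FPKM. Their part in the differences of the 7 genes was not tested.

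In the RefSeq gene table ZP2 is the single gene of the 7 whose span another gene overlaps. That gene, ANKS4B, stood at 9.13 and 6.57 FPKM in IVF and at 7.74 and 7.48 FPKM in SCNT, far below ZP2, and the counting is not stated to use strand.

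**Figure D5:**
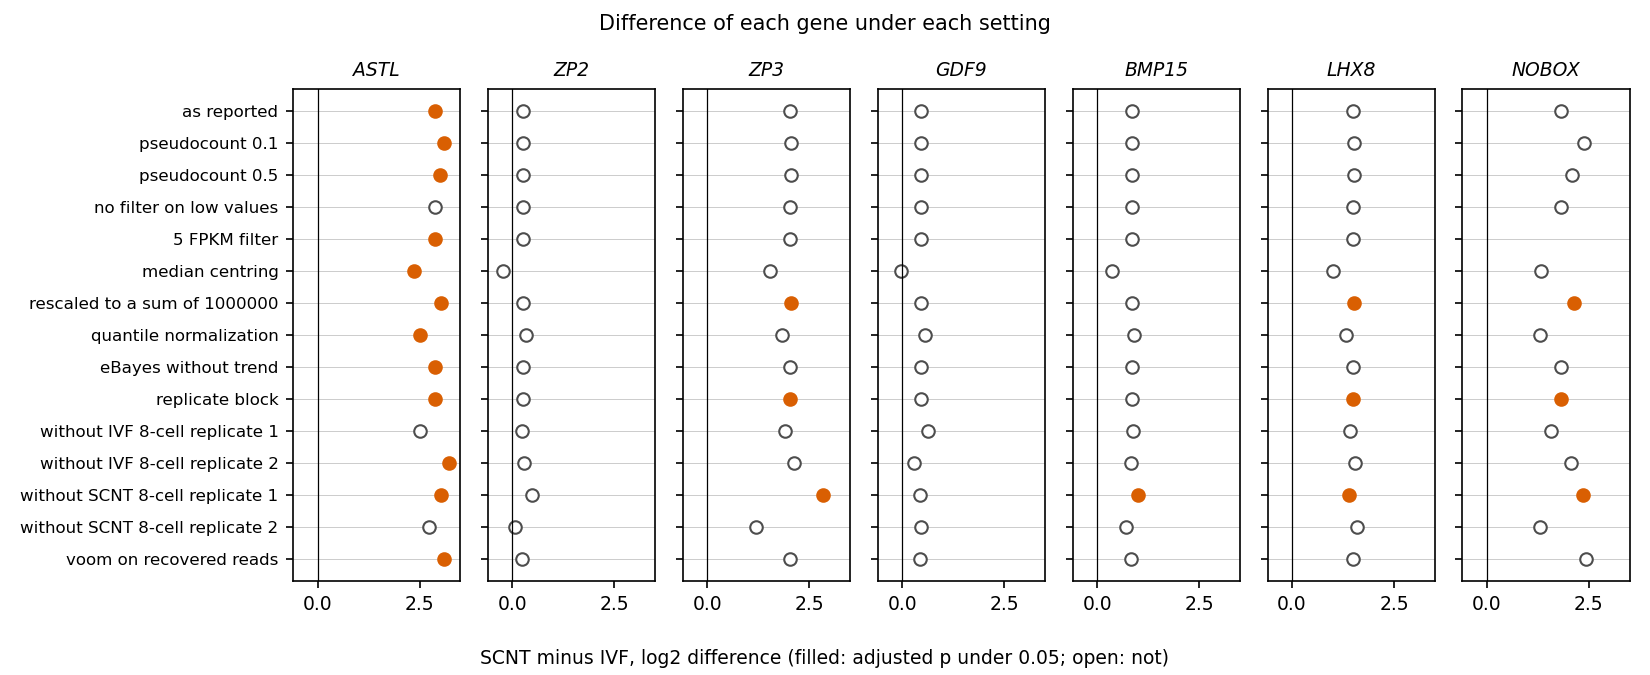
SCNT minus IVF log2 difference of each gene under each setting (filled points have an adjusted p under 0.05, open points do not). ASTL is positive throughout, from 2.37 to 3.21, and loses its call in 3 settings, while ZP2 and GDF9 fall to -0.23 and -0.04 after median centring.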

How the data were processed

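Per the labels' protocols, cDNA was made from the polyadenylated RNA of lysed embryos with Smart-seq2. The authors deposited FPKM values, 1 column per library. HTSeq, HISAT2 2.2.1 and fastp appear, per the submitters' processing notes. The sources used here give no genome build, annotation or scaling total, and no coordinates are printed. Of 22107 names, 22065 matched RefSeq's goat gene table (assembly ARS1.2, used for names and overlaps only).

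The 2 IVF and 2 SCNT 8-cell libraries were compared with limma 3.58.1 in R 4.3.3 (lmFit, eBayes with trend) on log2(FPKM + 1). A gene was tested where 2 or more libraries reached 1 FPKM. Tests were two-sided, with Benjamini-Hochberg adjustment over all 10303 genes and a threshold of 0.05. The code was tested on simulated data. Whole reads were recovered as the smallest numbers that fit all libraries within 0.003 read. Of 300 genes drawn with values above 0 in every library, 281 came out whole below 5000 reads in the lowest library. With wrong ratios 0 did. Larger numbers and genes at 0 in some libraries were not covered by this check, and there a fit could arise by accident.

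The 7 genes and the lists were chosen with earlier results of these data known. From each list, genes that passed and the 3 of highest mean level were named, beside the defining markers of cumulus and fibroblast cells; TNFAIP6 and genes marked in the text were added after their values were seen. Nearest genes were sought among tested genes whose range over the libraries was at least 1 log2 unit, unless the member's own range was smaller. Alternatives covered the pseudocount, filter, scaling, variance trend, replicate block and leaving out each library. Long non-coding RNA tables and 4-cell libraries were not used here.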

Additional observations from a re-analysis of the deposited data

How the results depend on the processing

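Of the 14 alternatives run for ASTL, all 14 kept it higher in SCNT and 11 kept its call. Besides the 2 libraries named with it, the call was lost with no filter on low values (2.87, adjusted p = 0.242 in limma), where no gene passed (0 of 20289, with 3661 at an unadjusted p under 0.05; voom in limma on recovered reads called 409 of 10303). Leaving out each library gave 2.52 to 3.21 for ASTL, 1.20 to 2.84 for ZP3, 0.72 to 1.01 for BMP15, 1.39 to 1.59 for LHX8, 1.29 to 2.35 for NOBOX and 46 to 3834 for the count of passing genes. Without SCNT 8-cell replicate 1 the spread comes from the closer IVF pair alone and the lone SCNT library is assumed to vary like it; there ASTL, ZP3, BMP15, LHX8 and NOBOX passed. Median centring gave -0.23 for ZP2 and -0.04 for GDF9, and quantile normalization 0.33 and 0.57, with neither gene passing under any of the 14 alternatives. Rescaling to a sum of 1000000 gave 1327 passing genes, and ZP3 (2.05), LHX8 (1.51) and NOBOX (2.14) passed with ASTL. In contrast, ZP3, LHX8, NOBOX and BMP15 did not pass after median centring (adjusted p = 0.112, 0.177, 0.112 and 0.553 in limma). Nor did these genes pass after quantile normalization (adjusted p = 0.111, 0.112, 0.138 and 0.166 in limma). With the replicate number as a block in the fit 1924 genes passed, and ZP3 (2.02), LHX8 (1.49) and NOBOX (1.82) passed with ASTL (2.87). Across genes, the replicate differences of the IVF and SCNT pairs correlated at 0.117. No label says that the numbers mark a shared batch, and whether they do was not tested. A filter of 5 FPKM left 133 passing genes and left NOBOX out. The voom fit was chosen after seeing the data, and it changed no call among the 7 genes. For the turns and lost calls the cause was not tested. With 2 libraries per group, the spread between libraries and not the number of reads limits the precision.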

Other observations

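Other maternal transcripts of the egg gave a background for the 7 genes. Of a list of 32 symbols for such genes, 25 were found in the table and 24 were tested, with 3 higher, 0 lower and 21 not passing. Over all tested genes 3.02% passed as higher. The median log2 difference was 0.96, against 0.39 over all tested genes. The 3 were ZAR1L, a relative of the zygote arrest gene (189 ± 8.11 against 1174 ± 553 FPKM; adjusted p = 0.033 in limma), KHDC3L of the subcortical maternal complex (22.6 ± 5.33 against 93.3 ± 8.23 FPKM; 0.0425) and NLRP13 (15.7 ± 7.39 against 79.5 ± 35.5 FPKM; 0.0496), each SD with n = 2. Without SCNT 8-cell replicate 2 ZAR1L passed (0.0454) and KHDC3L (0.0779) and NLRP13 (0.111) did not. Without IVF 8-cell replicate 1 none of the 3 passed (0.0859, 0.313 and 0.308), and without IVF 8-cell replicate 2 NLRP13 did (0.0450) while ZAR1L (0.0848) and KHDC3L (0.116) did not. After median centring and after quantile normalization ZAR1L alone of the 3 passed, with 1 gene of the list passing in each.

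The most abundant of the list did not share a direction. BTG4, an adaptor of the deadenylase that clears maternal messenger RNA, stood at 5070 and 6040 FPKM in IVF and at 3330 and 4246 FPKM in SCNT, with both SCNT values lower (adjusted p = 0.373 in limma). KPNA7, an oocyte nuclear import receptor gene, stood at 1373 and 1596 against 1716 and 5415 FPKM (0.233). WEE2, the kinase that keeps oocytes in meiotic arrest, stood at 478 and 618 against 661 and 1339 FPKM (0.265). In KPNA7 and WEE2, as in ASTL, ZP2, ZP3, BMP15 and NOBOX, SCNT replicate 2 was the highest of the 4 libraries. For GDF9 and LHX8 the highest was SCNT replicate 1.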
